A study of Mus musculus with 21 samples.

Results

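The genes described here carry fuel into and through the mitochondrial matrix of hematopoietic stem cells (HSCs), the bone marrow cells that renew themselves and form all blood lineages. They are 41 of the 21000 gene symbols in the deposited count table, picked by symbol as genes of these pathways. The pyruvate branch has 12 members, namely the mitochondrial pyruvate carrier (Mpc1, Mpc2), the pyruvate dehydrogenase complex (Pdha1, Pdhb, Dlat, Dld, Pdhx), the kinases that switch this complex off (Pdk1, Pdk2, Pdk3), the phosphatase that switches it on (Pdp1) and pyruvate carboxylase (Pcx). The tricarboxylic acid (TCA) cycle branch has 14 members, and the fatty acid oxidation branch has 15. All 41 symbols were found, all had reads in each of the 21 libraries, and all passed the filter on low counts in each of the 9 comparisons. The lowest count of a member in any library was 33.

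Pyruvate made by glycolysis enters the mitochondrion through the carrier and is turned into acetyl-CoA by pyruvate dehydrogenase. Fatty acids are taken in by the carnitine shuttle and shortened by beta-oxidation, which also ends in acetyl-CoA. The TCA cycle oxidizes acetyl-CoA and hands electrons to the respiratory chain. Quiescent HSCs have been described as glycolytic with low respiration. The study that made these data observed, however, that ATP in steady-state HSCs came more from mitochondria than from glycolysis. Pyruvate dehydrogenase kinases and fatty acid oxidation have both been linked to the maintenance of HSCs.

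All HSCs came from the bone marrow of wild-type mice, and each of the 7 groups had 3 libraries. Mice 10 weeks old received phosphate-buffered saline (PBS) or 150 mg/kg of 5-fluorouracil (5-FU), a cytotoxic drug that kills cycling blood cells and drives HSCs into the cell cycle, by the intraperitoneal route on day 1. HSCs were isolated on day 6 after a single or the third administration of PBS or 5-FU, and on day 21 after a single or the third administration of 5-FU, with 21 days between administrations. The last group held fresh HSCs of mice aged 2 years. There was no PBS group at day 21, so HSCs at day 21 were compared with the PBS group of day 6. For mice treated with 5-FU and analysed early, the study widened the sorting gate to cells with dim c-Kit and left out the Mac-1 antibody, so at day 6 the treatment and the gate cannot be told apart.

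The libraries held 22184885 to 38649033 counts each (median 26962256). The summed level of 10 HSC marker genes was between 4084 and 4526 normalized CPM (counts scaled to the library size with a TMM factor) after single PBS and between 3225 and 3408 after single 5-FU at day 6, and none of the 10 was at 0 in any group. Summed markers of myeloid cells (60.6 to 74.6 CPM, against 102 to 155 after PBS), megakaryocytes (108 to 114, against 183 to 223) and multipotent progenitors (216 to 228, against 324 or more) were lower after single 5-FU at day 6, and summed lymphoid markers reached 9.10 CPM at most in any library. Of the 7 megakaryocyte markers tested, 5 were called lower after single 5-FU and 3 after the third. The sum of the 3 multipotent progenitor markers was mostly Cd34 (median 346 CPM after single PBS and 203 after single 5-FU). Cd48 went the other way, with 3.42 to 4.78 CPM after single PBS and 7.13 to 7.87 after single 5-FU. In both day 6 comparisons, 2 of these 3 markers were called lower and 1 higher. The sum of 8 erythroid markers was higher (104 to 114 CPM, against 30.0 to 39.8), with 2 called higher and 1 lower, the medians of Hbb-bs and Hbb-bt going from 5.81 and 7.55 to 42.5 and 47.2 CPM and that of Klf1, an erythroid transcription factor, from 3.31 to 0.404. Of the 10 HSC markers, 3 were called higher and 2 lower after single 5-FU, and 1 higher and 4 lower after the third. Of 10 S phase genes, 7 were called higher after single 5-FU and 9 after the third, and their summed level went from 1618 to 1724 CPM after single PBS to 2193 to 2446 after single 5-FU. Of 10 genes of G2 and mitosis, 6 and 10 were called higher. Of all genes tested, 11.5% were called higher and 10.6% lower after single 5-FU, and 9.84% and 8.3% after the third. The part of these shifts in the members' changes was not tested. In bulk RNA, a change in the share of cells of one kind and a change in the RNA of each cell cannot be told apart. In the count table, a suffix of unstated meaning marks the columns of single PBS and single 5-FU at day 6 (6 libraries) and no others.

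RefSeq promoter windows on GRCm38.p6, from 250 bases before to 50 after the start site, were found for 38 of the 41 members, in 48 windows. Acaa2, Idh3a and Pdp1 had none in the table used. The bases before the start site are shown, 5′ to 3′ on the gene's strand, for Pdk2 and Idh1, the members called lower after 5-FU, and for Cs, the entry enzyme of the TCA cycle, which was higher after both a single and the third administration. They lie at chr11:95041372-95041621 on the minus strand, chr1:65186480-65186729 on the minus strand and chr10:128337477-128337726 on the plus strand. Capitals mark the CCAAT box (CCAAT, or ATTGG on the other strand) and the E-box CACGTG.
Pdk2: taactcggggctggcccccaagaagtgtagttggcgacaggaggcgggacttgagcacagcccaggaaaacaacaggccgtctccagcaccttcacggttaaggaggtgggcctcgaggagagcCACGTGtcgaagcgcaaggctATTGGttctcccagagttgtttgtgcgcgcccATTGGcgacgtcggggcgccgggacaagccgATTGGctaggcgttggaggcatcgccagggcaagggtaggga
Idh1: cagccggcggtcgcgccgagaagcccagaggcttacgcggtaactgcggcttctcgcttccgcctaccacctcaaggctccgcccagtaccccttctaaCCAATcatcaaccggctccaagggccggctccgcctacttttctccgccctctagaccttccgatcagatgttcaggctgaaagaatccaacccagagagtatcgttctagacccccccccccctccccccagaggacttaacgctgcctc
Cs: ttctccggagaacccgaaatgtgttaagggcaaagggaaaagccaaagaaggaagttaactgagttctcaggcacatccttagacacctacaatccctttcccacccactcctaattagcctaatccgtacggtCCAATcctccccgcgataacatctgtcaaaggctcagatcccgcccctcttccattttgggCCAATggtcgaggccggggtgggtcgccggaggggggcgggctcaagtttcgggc

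The Pdk2 stretch holds 3 CCAAT boxes and 1 E-box, the Idh1 stretch 1 CCAAT box and the Cs stretch 2. Pdk2 and Idh1 each have another window from a start site further into the gene, with no match to either motif. With both strands searched and a gene counted once however many windows it has, a CCAAT box stood in 21 of the 38 members (55.3%) and in 41.1% of all 27025 genes with a window. The E-box stood in 7.89% and 8.09%, and the core site of the factor NRF1, an activator of nuclear genes for mitochondrial proteins (GCGCATGCG), in 3 members (7.89%) and in 1.95%. The site of GABPA (CCGGAAG) stood in 15.8% and 9.93%, and that of YY1 (AAGATGG) in 4 of the 38 members and 7.28% of all genes. The extended site of the estrogen-related receptors (TCAAGGTCA) was in none of the members and in 0.466% of all genes. Ogdh has 6 windows, some of which overlap. The members' windows were also richer in G and C, with a median of 61.3% against 52.7%, and the part of base composition in these shares was not tested.

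In HSCs after single PBS, the members spanned a wide range of levels, compared here as mean CPM per kilobase of the longest annotated transcript. Ogdh, the catalytic subunit of the 2-oxoglutarate dehydrogenase complex, was at 427 CPM per kilobase and ranked 62nd of 20499 genes. Mpc1 at 127, Mdh1 (cytosolic malate dehydrogenase) at 120 and Idh3g, a regulatory subunit of the NAD-dependent isocitrate dehydrogenase, at 84.0 followed. Hadhb, the thiolase subunit of the trifunctional protein, led the fatty acid branch at 54.5, while its partner subunit Hadha was at 8.12. The lowest members were Mpc2 at 3.32 and Pcx at 2.94. For the partners of the pyruvate carrier, mean CPM before division by length was 122 for Mpc1 and 13.3 for Mpc2. Per kilobase, Mpc1 was at 48.6, 36.2 and 30.6 times Mpc2 in the 3 libraries. The ratio per kilobase rests on longest transcripts of 961 bases for Mpc1 and 4015 for Mpc2. An overlap of Mpc1 with an antisense gene is given below. Ogdh held 59.8% to 62.1% of the summed CPM of the TCA branch in these libraries, so that branch sums mostly follow Ogdh, and the branches are described below by their medians.

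At day 6 after single 5-FU, genes of all 3 branches were higher than after PBS, with Pdp1 changed most and with Pdk2 and Idh1 lower. Of the 41 members, 18 (43.9%) passed an adjusted p of 0.05 in the quasi-likelihood test of edgeR, against 22.2% of all genes tested. The higher members numbered 16 (39%, against 11.5% of all genes) and the lower members 2 (4.88%, against 10.6%). The median log2 fold change was 0.21 over the members and −0.000556 over all genes. In 26 members (63.4%) every 5-FU library lay above every PBS library, against 22.3% of all genes. Leaving out 1 library at a time left 3 to 11 members called (3 without PBS replicate 2, 4 without 5-FU replicate 2, 6 and 10 without PBS replicates 1 and 3, 7 and 11 without 5-FU replicates 3 and 1). The members' share was then 7.32% without PBS replicate 2 and 9.76% without 5-FU replicate 2, below the 13.2% and 12% of all genes called in those fits, and 14.6% to 26.8% against 13.5% to 15% in the other 4. Scaled by library size alone, 9 members (22%) were called, against 21.6% of all genes, so that the higher share of the members depends on the scaling and on these libraries. Pdp1, Idh3a and Cpt1a kept their call in all 13 alternatives tried, and each of the other 15 lost it in 2 to 9 of them, always in the same direction. The changes were small other than for Pdp1, Pdk2 and Idh1, since no other member differed by more than 0.44 on the log2 scale.

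**Figure D1:**
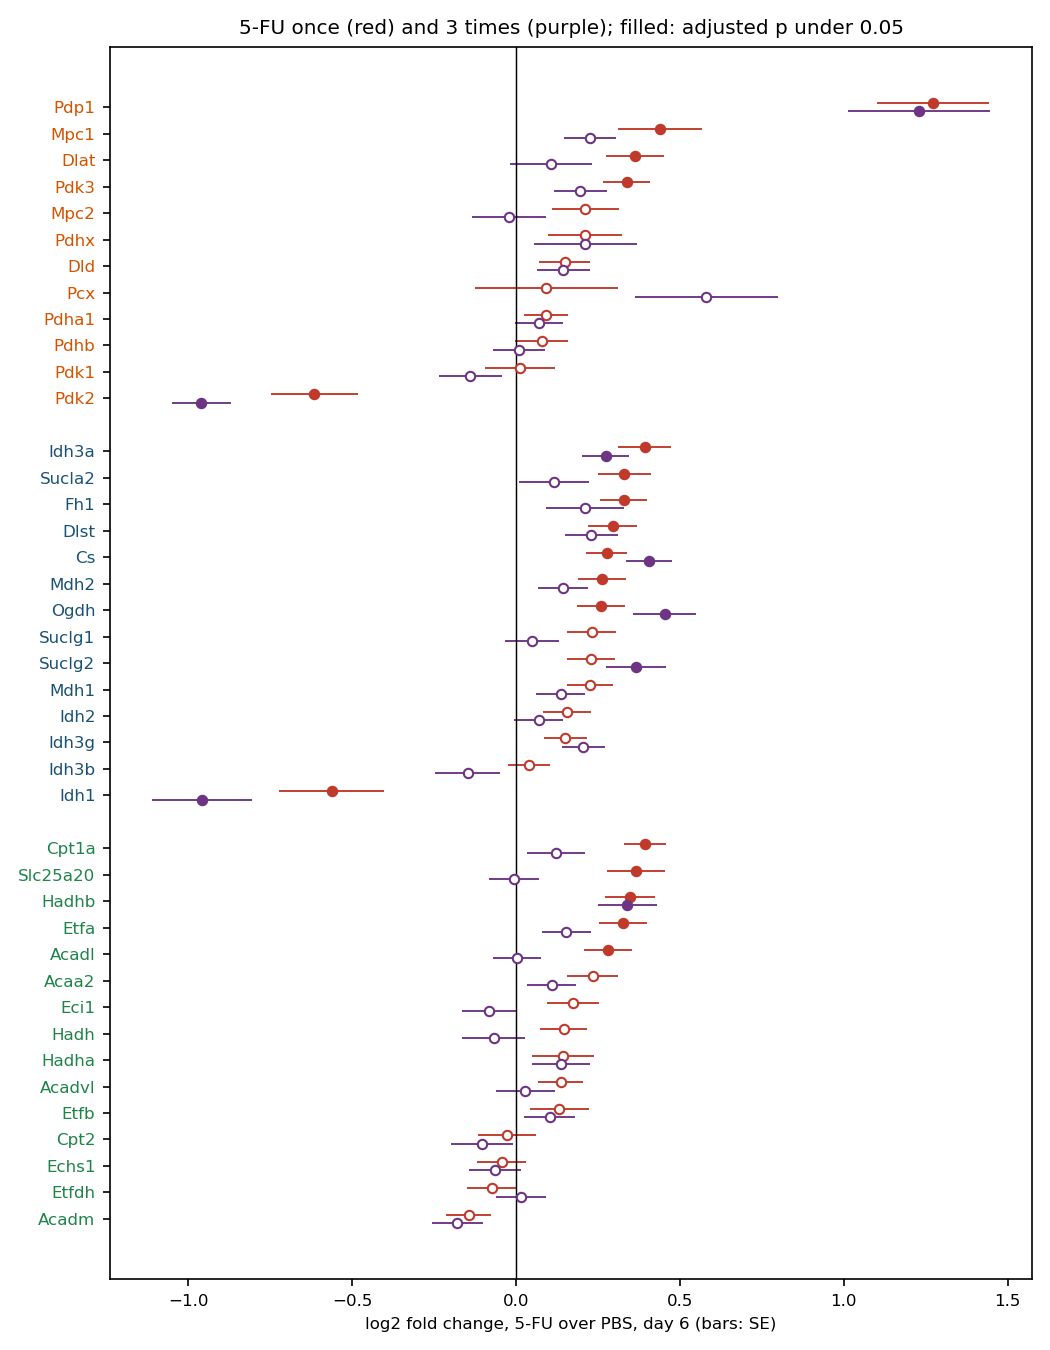
Log2 fold change of each of the 41 members at day 6, 5-FU over PBS, after a single (red) and the third (purple) administration, with bars for the standard error and filled points for an adjusted p under 0.05. Most points lie between 0 and 0.5, with Pdp1 above 1 and Pdk2 and Idh1 below −0.5 in both.

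In the pyruvate branch, 4 of 12 members (33.3%, against 11.5% of all genes) were called higher and 1 lower (8.33%, against 10.6%) after single 5-FU. The median log2 fold change was 0.18. Pdp1, which dephosphorylates and so activates pyruvate dehydrogenase, lies on chromosome 4 from 11958184 to 11966452 (GRCm38) and had 118, 122 and 85.3 CPM after PBS and 250, 309 and 221 CPM after 5-FU. The lowest 5-FU library was above the highest PBS library by a wide margin. The log2 fold change was 1.27 (SE 0.17, adjusted p = 0.0038, edgeR).

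Pdk2, a kinase that inactivates the same complex, moved the other way. It lies on chromosome 11 from 95026258 to 95041354 and had 60.6, 55.2 and 49.4 CPM after PBS and 42.0, 34.2 and 30.7 CPM after 5-FU. The groups did not overlap, and the log2 fold change was −0.62 (SE 0.13, adjusted p = 0.018, edgeR). Its paralog Pdk3, with 35.0, 34.1 and 32.9 CPM after PBS, rose to 43.8, 43.2 and 40.8 (log2 fold change 0.34, SE 0.07, adjusted p = 0.017, edgeR). Pdk1 had 122, 161 and 157 CPM after PBS and 148, 148 and 143 after 5-FU, within the spread of the PBS libraries. By mean CPM per kilobase after PBS it was the most abundant of the 3 kinases, at 28.3 against 24.5 for Pdk2. Pdk1 was at 0.875, 1.26 and 1.38 times Pdk2 per kilobase in the 3 PBS libraries, so this order did not hold in each. The kinases therefore shifted relative to each other: Pdk3 was at 0.614, 0.656 and 0.707 times Pdk2 per kilobase after PBS and at 1.11, 1.34 and 1.41 times after 5-FU.

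Mpc1, with 146, 113 and 106 CPM after PBS, was at 169, 170 and 152 after 5-FU (log2 fold change 0.44, SE 0.13, adjusted p = 0.048, edgeR). Annotation places 23.1% of the exonic bases of Mpc1 also in an antisense gene, and whether the counting used strand is not stated. Dlat, the acetyltransferase core of pyruvate dehydrogenase, had 26.4 CPM in each PBS library and 33.6, 30.7 and 36.8 after 5-FU (log2 fold change 0.36, SE 0.09, adjusted p = 0.027, edgeR). The other subunits of the complex, Pdha1, Pdhb, Dld and Pdhx, had log2 fold changes between 0.08 and 0.21 that did not pass. Pcx, which makes oxaloacetate from pyruvate, was at 10.6, 15.95 and 10.0 CPM after PBS and 14.4, 14.2 and 10.1 after 5-FU, and these ranges overlapped.

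In the TCA branch, 7 of 14 members (50%, against 11.5% of all genes) were called higher and 1 lower (7.14%, against 10.6%). The median log2 fold change was 0.24. In 12 of the 14 (85.7%, against 22.3% of all genes) every 5-FU library lay above every PBS library. Idh3a, the catalytic subunit of the isocitrate dehydrogenase that drives the cycle, had 34.1, 38.8 and 36.2 CPM after PBS and 50.4, 46.0 and 45.6 after 5-FU (log2 fold change 0.39, SE 0.08, adjusted p = 0.016, edgeR). Fumarase, Fh1, was tightly grouped, at 27.1, 26.1 and 28.2 CPM after PBS and 33.9, 33.9 and 33.6 after 5-FU (log2 fold change 0.33, SE 0.07, adjusted p = 0.02, edgeR). The subunit of the ATP-forming succinyl-CoA ligase, Sucla2, had 76.0, 70.0 and 80.4 CPM after PBS and 92.7, 90.7 and 98.9 after 5-FU (log2 fold change 0.33, SE 0.08, adjusted p = 0.027, edgeR).

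Dlst, the succinyltransferase of the 2-oxoglutarate dehydrogenase complex, had 39.1, 36.8 and 38.2 CPM after PBS and 43.7, 47.2 and 47.9 after 5-FU (log2 fold change 0.29, SE 0.07, adjusted p = 0.031, edgeR). Cs, Ogdh and Mdh2, which encode citrate synthase, the first subunit of that complex and mitochondrial malate dehydrogenase, were also called higher, with log2 fold changes of 0.28, 0.26 and 0.26. The only member of the branch below 0 was Idh1, the cytosolic NADP-dependent isocitrate dehydrogenase, which makes NADPH outside the mitochondrion. It had 64.9, 58.9 and 50.4 CPM after PBS and 48.3, 36.2 and 32.7 after 5-FU (log2 fold change −0.56, SE 0.16, adjusted p = 0.044, edgeR), on chromosome 1 from 65158616 to 65186500. Its mitochondrial counterpart Idh2 had 49.5, 48.5 and 50.8 CPM after PBS and 58.3, 53.5 and 52.4 after 5-FU and was not called (log2 fold change 0.15, adjusted p = 0.17, edgeR).

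In the fatty acid branch, 5 of 15 members (33.3%, against 11.5% of all genes) were called higher after single 5-FU. None was called lower, against 10.6% of all genes (0 at an unadjusted p under 0.05 with a negative sign in edgeR, and none by DESeq2). The median log2 fold change was 0.14. Cpt1a and Slc25a20 belong to the carnitine shuttle, Cpt1a being the entry enzyme on the outer membrane and Slc25a20 the carrier of acylcarnitines. Cpt1a had 63.7, 65.2 and 62.0 CPM after PBS and 85.4, 80.5 and 82.8 after 5-FU (log2 fold change 0.39, SE 0.07, adjusted p = 0.0077, edgeR). Slc25a20 had 18.7, 19.0 and 19.6 CPM after PBS and 26.5, 24.2 and 22.5 after 5-FU (log2 fold change 0.37, SE 0.09, adjusted p = 0.028, edgeR). Cpt2, the last enzyme of the shuttle, was at 21.1, 21.6 and 22.3 CPM and then 19.9, 22.9 and 20.5, with overlapping groups.

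Hadhb had 257, 236 and 224 CPM after PBS and 299, 319 and 286 after 5-FU (log2 fold change 0.35, SE 0.08, adjusted p = 0.019, edgeR). Etfa, a subunit of the flavoprotein that takes electrons from the acyl-CoA dehydrogenases, had 27.0, 26 and 28.0 CPM after PBS and 34.3, 33.9 and 32.6 after 5-FU (log2 fold change 0.33, SE 0.07, adjusted p = 0.021, edgeR). The acyl-CoA dehydrogenases, which are split by chain length, did not move alike. Acadl, for long chains, was called higher at a log2 fold change of 0.28, Acadvl, for very long chains, was at 0.14 and not called, and Acadm, for medium chains, was at −0.15 (adjusted p = 0.16, edgeR). Acadm had the lowest fold change of the branch, with 37.0, 39.1 and 38.8 CPM after PBS and 34.8, 33.9 and 34.4 after 5-FU. Acadl stood at 1.07, 0.964 and 1.08 times Acadm per kilobase after PBS and at 1.39, 1.40 and 1.40 times after 5-FU. In Acadvl, 42.9% of the exonic bases are shared with Dvl2 on the other strand. Cpt2, Echs1 and Etfdh had log2 fold changes between −0.07 and −0.03.

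**Figure D2:**
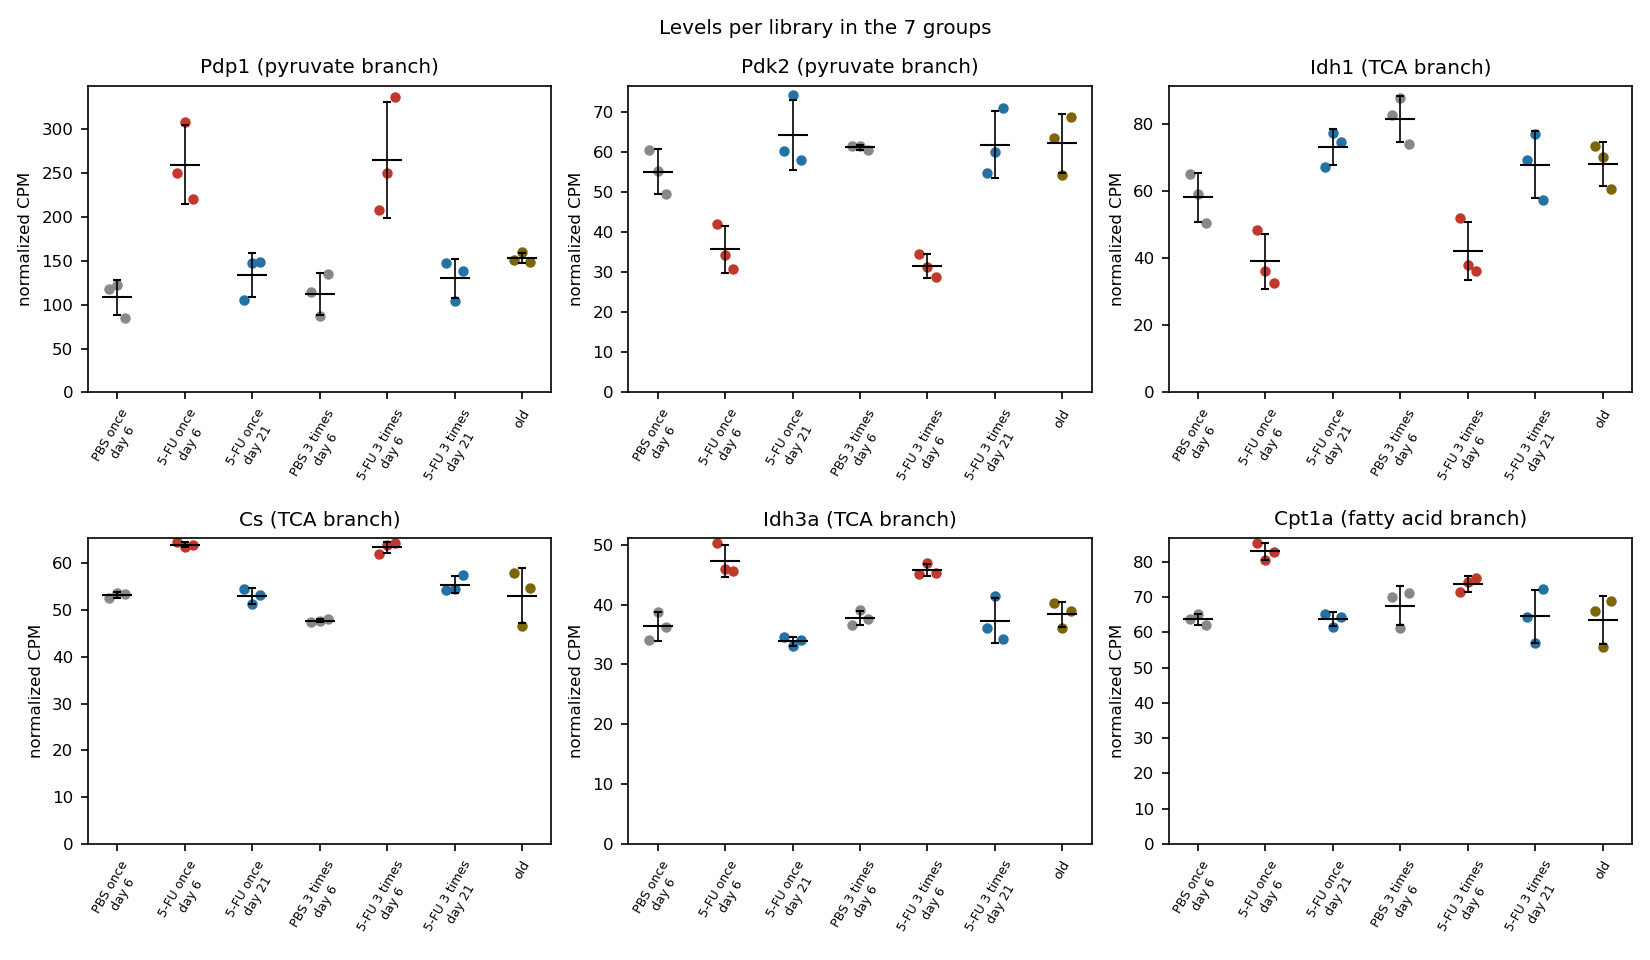
Normalized CPM of Pdp1, Pdk2, Idh1, Cs, Idh3a and Cpt1a in each of the 21 libraries (points), with the mean (bar) and SD (error bars) of the 3 libraries of each group. Pdp1 is highest and Pdk2 and Idh1 are lowest in both groups isolated at day 6 after 5-FU, and the day 21 and old groups sit near PBS.

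After the third 5-FU, fewer members passed than after the single one, with the same members at the extremes. Of the 41, 8 (19.5%) were called, against 18.1% of all genes tested. The share is close to the background, and so is not a result about the members as a group. There were 6 higher members (14.6%, against 9.84% of all genes) and 2 lower members (4.88%, against 8.3%). In 18 members (43.9%) every 5-FU library lay above every library of the third PBS, against 21.2% of all genes. The median log2 fold change was 0.11 over the members and −0.0115 over all genes. Scaled by library size alone, all genes split into 807 higher and 1462 lower calls in place of 1253 and 1057. With this scaling, 5 members (12.2%) were called, against 17.8% of all genes. Without 1 library, 4 members were called (without PBS replicate 3), 5 (without PBS replicate 2 or any 5-FU replicate) or 6. These were 9.76% to 14.6% of the members, against 9.45% to 12.1% of all genes. Pdp1, Pdk2, Idh1 and Cs kept their call in all 13 alternatives, and each of the other 4 lost it in 3 to 8.

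In the pyruvate branch, Pdp1 was the 1 member of 12 called higher (8.33%, against 9.84% of all genes). Pdk2 was the 1 called lower (8.33%, against 8.3%). The median log2 fold change was 0.13. Pdp1 had 115, 87.6 and 135 CPM after the third PBS and 208, 250 and 337 after the third 5-FU (log2 fold change 1.23, SE 0.22, adjusted p = 0.012, edgeR). Pdk2 had 61.5, 61.5 and 60.4 CPM and then 34.5, 31.3 and 28.7 (log2 fold change −0.96, SE 0.09, adjusted p = 0.0024, edgeR). Idh1 had 82.5, 87.6 and 73.9 CPM and then 51.9, 38.0 and 36.0 (log2 fold change −0.96, SE 0.15, adjusted p = 0.0085, edgeR). In all 3 genes the groups did not overlap. Pdk3 was at 0.540, 0.598 and 0.616 times Pdk2 per kilobase after the third PBS and at 1.20, 1.29 and 1.44 times after the third 5-FU. Pdk3 itself was not called (log2 fold change 0.20, adjusted p = 0.14, edgeR). Pdk1 and Mpc2 went against the branch, at −0.14 and −0.02, and were not called. Pcx, with 12.3, 16.4 and 9.03 CPM after PBS and 21.9, 16.8 and 17.9 after 5-FU, had no overlap between the groups but did not pass (log2 fold change 0.58, SE 0.22, adjusted p = 0.11, edgeR).

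In the TCA branch, 4 of 14 members (28.6%, against 9.84% of all genes) were called higher and 1 lower (7.14%, against 8.3%). The median log2 fold change was 0.17. Ogdh had 1841, 1806 and 1621 CPM after the third PBS and 2303, 2201 and 2729 after the third 5-FU (log2 fold change 0.45, SE 0.09, adjusted p = 0.02, edgeR). Cs had 47.5, 47.6 and 48.2 CPM and then 62.1, 63.9 and 64.3 (log2 fold change 0.40, SE 0.07, adjusted p = 0.01, edgeR). Suclg2, of the GTP-forming succinyl-CoA ligase, had 167, 140 and 151 CPM and then 191, 190 and 212 (log2 fold change 0.37, SE 0.09, adjusted p = 0.035, edgeR). None of these groups overlapped. Idh3a was called at a log2 fold change of 0.27 (SE 0.07, adjusted p = 0.039, edgeR). Idh3b, a regulatory subunit of the same enzyme, went against the branch at −0.15 (adjusted p = 0.35, edgeR), with 141, 127 and 142 CPM after PBS and 137, 123 and 112 after 5-FU.

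In the fatty acid branch only Hadhb was called after the third 5-FU (6.67% of the branch, against 18.1% of all genes). Hadhb had 278, 255 and 263 CPM after PBS and 316, 318 and 375 after 5-FU (log2 fold change 0.34, SE 0.09, adjusted p = 0.04, edgeR). The branch had 9 members above 0 and 6 below, and its median log2 fold change was 0.01, near that of all genes. Slc25a20, which had risen after a single administration, was at 23.2, 22.4 and 22.1 CPM after the third PBS and 22.6, 22.6 and 22.4 after the third 5-FU. Cpt1a was at 70.1, 61.2 and 71.2 CPM and then 71.3, 74.3 and 75.5 (log2 fold change 0.12, adjusted p = 0.38, edgeR). Acadl was at 37.1, 38.1 and 40.0 CPM and then 38.9, 38.9 and 38.0. In both Slc25a20 and Acadl the groups overlapped. The mean log2 CPM of the fatty acid branch minus that of the TCA branch was taken within each library. This difference was −1.33 to −1.26 after the third PBS and −1.41 to −1.34 after the third 5-FU at day 6. It was −1.30 to −1.25 after single PBS and −1.31 to −1.29 after single 5-FU at day 6. At day 21 it was −1.402 to −1.224 after single 5-FU and −1.329 to −1.225 after the third. In old HSCs it was −1.375 to −1.272. The range after the third 5-FU at day 6 thus overlapped those of day 21 after single 5-FU and of old HSCs.

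The single and the third administrations share no libraries. Of the 18 members called after single 5-FU, 7 (38.9%) were called after the third, against 42.8% of all genes called after single 5-FU. These were Pdp1, Pdk2, Cs, Idh1, Idh3a, Ogdh and Hadhb, and they made up 87.5% of the 8 called after the third, against 52.3% for all genes. All 7 had the same direction in both, as did 1190 of all 1202 genes called in both.

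Whether the effect of 5-FU differed between 1 and 3 administrations was tested by the interaction over 12 libraries. No member passed in edgeR, against 0.65% of all genes. At an unadjusted p under 0.05 there were 4 members (9.76%, against 14.8% of all genes), Slc25a20, Acadl, Cpt1a and Eci1, all of the fatty acid branch and all with a negative value, that is, less high after the third 5-FU relative to PBS than after the single one. DESeq2 called 2 of them (4.88% of the members, against 5.41% of all genes), Slc25a20 at −0.36 and Acadl at −0.27 (adjusted p = 0.0355 and 0.0349, DESeq2). In edgeR, the interaction was −0.36 for Slc25a20 (SE 0.10, adjusted p = 0.13) and −0.27 for Acadl (SE 0.09, adjusted p = 0.18). For Pdp1 it was −0.03 (SE 0.30), for Pdk2 −0.33 (SE 0.17) and for Idh1 −0.38 (SE 0.24), none of which passed. A call after one schedule and not the other is thus not shown to differ between them in the main test.

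Day 21 was compared with PBS to ask whether the day 6 differences lasted. Against PBS at day 6, no member was called after a single 5-FU in edgeR, against 0.221% of all genes, and none after the third, against 0.0475%. DESeq2 called no member in either. At an unadjusted p under 0.05 in edgeR there were 3 members after single 5-FU (Dlat and Idh1 above PBS, Fh1 below) and 5 after the third (Cs above PBS and Mpc1, Pdk1, Slc25a20 and Sucla2 below). These are 7.32% and 12.2% of the members, against 13.3% and 13.7% of all genes. The medians over the members were −0.08 and −0.03 on the log2 scale. Pdp1 had 105, 148 and 148 CPM at day 21 after single 5-FU and 147, 104 and 138 after the third. Pdk2 had 60.2, 74.2 and 58.0 CPM and 54.6, 59.9 and 70.9. Both genes overlapped the PBS libraries. Pcx had 1 library far from its pair at day 21 after single 5-FU, with 1.29, 9.28 and 10.3 CPM, and its log2 fold change of −0.80 had a standard error of 0.62. The comparison after single 5-FU also crosses the suffix in the column names.

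**Figure D3:**
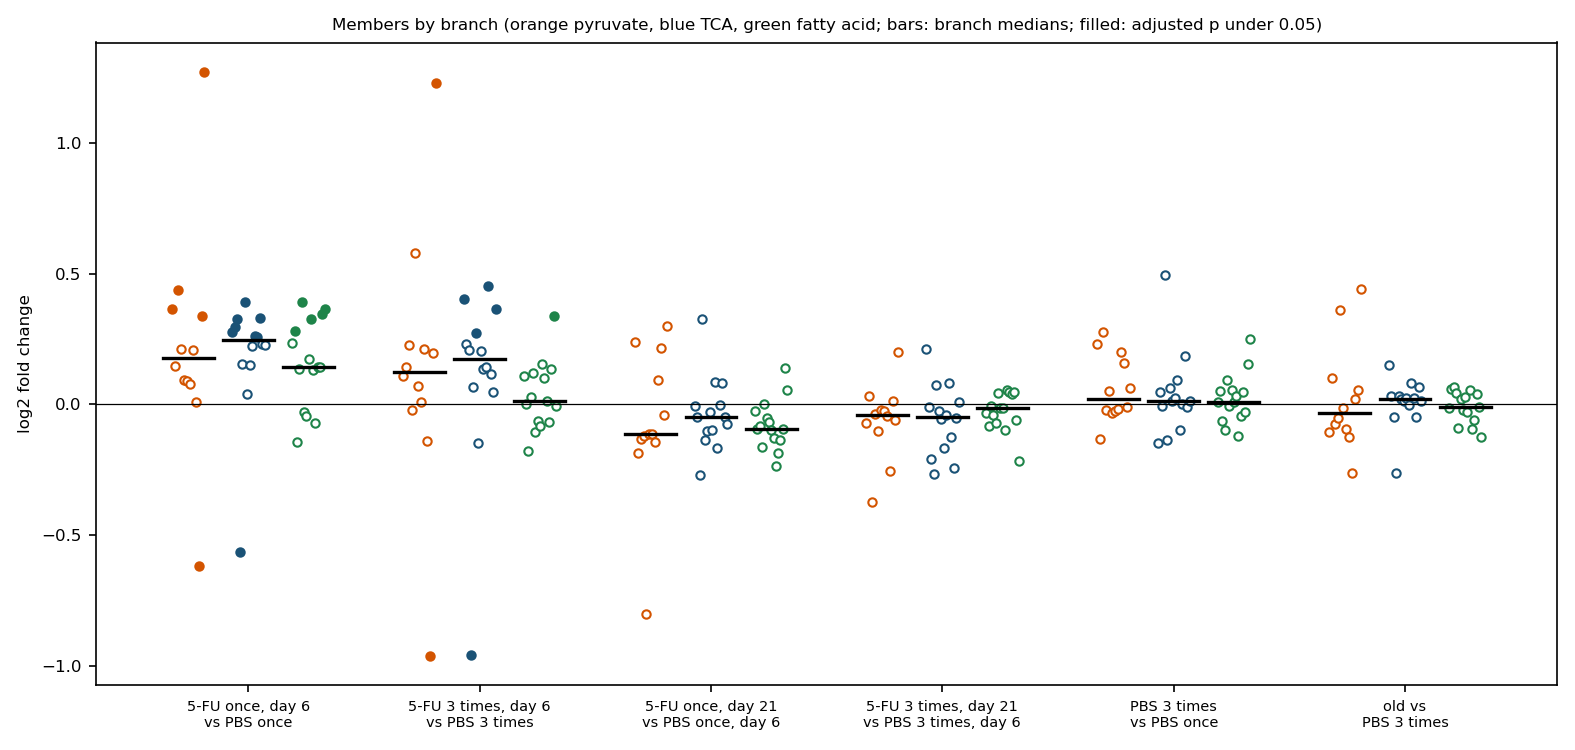
Log2 fold change of each member (points, filled where adjusted p is under 0.05) by branch in 6 comparisons, with bars for branch medians. Filled points appear in both 5-FU comparisons at day 6, and in none of the other 4 comparisons.

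Day 21 was also compared with day 6 after 5-FU, with the day 6 libraries the same as in the comparisons with PBS, so that these values are not independent of those above. The study widened the sorting gate at the early time only, so time and gate cannot be told apart in these comparisons. Of the 18 members called against PBS at day 6 after single 5-FU, 13 were called in the opposite direction here, and Dlat, Hadhb, Ogdh, Slc25a20 and Sucla2 did not pass. Of the 8 called after the third, 5 were, and Cs, Hadhb and Idh3a did not pass. The same share over all genes was not counted, so these counts are not a result particular to the members. The comparison after single 5-FU crosses the suffix in the column names, and the part of the suffix was not tested. After single 5-FU, 18 members (43.9%) were called, against 26% of all genes, with 16 lower at day 21 (39%, against 13.7%) and 2 higher (4.88%, against 12.3%). The lower members were 4 of the pyruvate branch (33.3%), 7 of the TCA branch (50%) and 5 of the fatty acid branch (33.3%), and the higher were Pdk2 and Idh1. Pdp1 changed by −0.97 (SE 0.17, adjusted p = 0.0083, edgeR), Pdk2 by 0.83 (SE 0.15, adjusted p = 0.0083, edgeR) and Idh1 by 0.89 (SE 0.15, adjusted p = 0.0073, edgeR). Of the other pyruvate genes, Mpc1 changed by −0.57, Pdk3 by −0.38 and Dld by −0.33. Without 1 library, 8 to 20 members were called (19.5% to 48.8%, against 13.5% to 23.2% of all genes). There were 8 without day 21 replicate 3 or day 6 replicate 2, 9 without day 6 replicate 1, and 10 without day 21 replicate 2 or day 6 replicate 3. Of the 18 calls, 10 were lost in 3 to 9 of the 13 alternatives, and Cpt1a, Etfa, Fh1, Idh1, Idh3a, Mpc1, Pdk2 and Pdp1 kept theirs in all.

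Fh1 had 23.1, 21.5 and 23.0 CPM at day 21, below all libraries of day 6 and of PBS, and changed by −0.60 (SE 0.08, adjusted p = 0.0033, edgeR). Idh3a changed by −0.49 (SE 0.08, adjusted p = 0.0067, edgeR), Mdh2 by −0.43 and Dlst by −0.34. Etfa changed by −0.46 (SE 0.09, adjusted p = 0.011, edgeR), Cpt1a by −0.39 (SE 0.08, adjusted p = 0.011, edgeR), Acadl by −0.38 and Etfb, the partner of Etfa, by −0.37. Etfb shares 53% of its exonic bases with Gm45233 on its own strand, and the sources used here do not say which gene received such reads. Acadvl, Cs, Idh2 and Suclg2 were called with changes between −0.30 and −0.29.

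After the third 5-FU, 10 members (24.4%) were called between day 6 and day 21, against 19.5% of all genes. This share is near the background, and so is not a result about the members as a group. There were 8 lower members at day 21 (19.5%, against 10.8%) and 2 higher (4.88%, against 8.68%). Scaled by library size alone, all genes split into 1701 higher and 977 lower calls in place of 1089 and 1361. With this scaling, 7 members (17.1%) were called, against 21.3% of all genes. Without 1 library, 6 to 8 members were called (14.6% to 19.5%, against 10.6% to 13.6% of all genes), with 6 without day 6 replicate 2 or 3. Of the 10 calls, 6 were lost in 1 to 8 of the 13 alternatives, and Idh3g, Ogdh, Pdk2 and Pdp1 kept theirs in all. Pdp1 changed by −1.04 (SE 0.20, adjusted p = 0.013, edgeR), Pdk2 by 0.96 (SE 0.12, adjusted p = 0.0032, edgeR) and Idh1 by 0.68 (SE 0.17, adjusted p = 0.033, edgeR). Pcx had 21.9, 16.8 and 17.9 CPM at day 6 and 11.7, 12.6 and 10.9 at day 21, a change of −0.69 (SE 0.13, adjusted p = 0.013, edgeR) that did not pass in a single fit of all 21 libraries (adjusted p = 0.26, edgeR). Mpc1 changed by −0.61 and Ogdh by −0.59 (SE 0.10, adjusted p = 0.0085, edgeR), and Fh1, Idh3g, Sucla2 and Suclg2 by −0.43 to −0.37. No member of the fatty acid branch passed in edgeR, where 3 of its 15 members (20%, against 34% of all genes) had an unadjusted p under 0.05. The median of the branch was −0.08, against −0.23 for the TCA branch and −0.16 for the pyruvate branch.

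**Figure D4:**
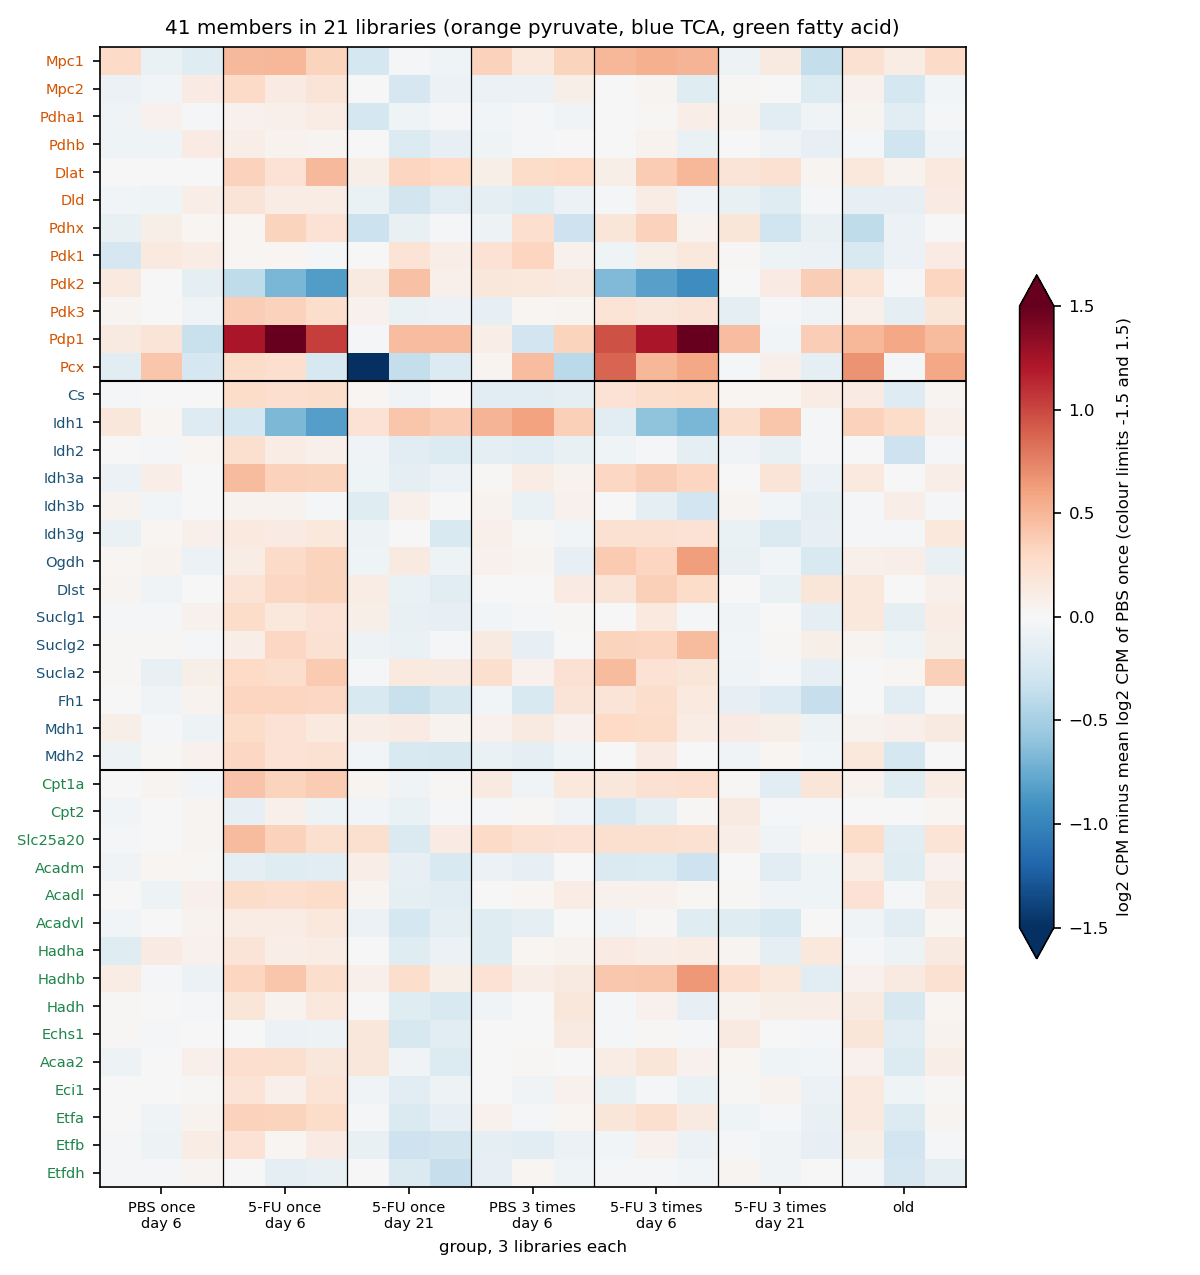
Heat map of the 41 members (rows, by branch) in the 21 libraries (columns, by group), coloured by log2 CPM minus the mean log2 CPM of the single PBS libraries. The day 6 5-FU columns are mostly red with Pdk2 and Idh1 in blue, and the darkest blue cell, in the first library of day 21, is Pcx at 1.29 CPM.

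HSCs of mice aged 2 years were compared with those of the third PBS group, which differ in age and in having received PBS. No member was called in edgeR or in DESeq2, against 0.996% of all genes in edgeR. At an unadjusted p under 0.05 there were 2 members (4.88%, against 11.2% of all genes), Pdp1 and Idh1. Pdp1 had 151, 160 and 149 CPM in old HSCs, above all libraries of the third PBS group, at a log2 fold change of 0.44 (SE 0.15, adjusted p = 0.31, edgeR). Idh1 had 73.4, 70.1 and 60.7 CPM, below them all, at −0.26 (SE 0.11, adjusted p = 0.44, edgeR). Pcx, with 19.0, 11.7 and 17.9 CPM, overlapped the third PBS group.

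Between the PBS groups, the third against the single one, no member was called in edgeR, against 0.0156% of all genes. At an unadjusted p under 0.05 there were 3 members (7.32%, against 12.8% of all genes), Idh1, Slc25a20 and Dlat, all higher after the third PBS. DESeq2 called 1 (2.44%, against 4.27% of all genes), Idh1, at a log2 fold change of 0.49 (adjusted p = 0.0095, DESeq2). In edgeR the value of Idh1 was 0.49 (SE 0.12, adjusted p = 0.19). Idh1 thus started from 64.9, 58.9 and 50.4 CPM after single PBS and from 82.5, 87.6 and 73.9 after the third PBS, and the groups did not overlap. Slc25a20 started from 18.7 to 19.6 CPM and from 22.1 to 23.2 CPM, while after the single and the third 5-FU at day 6 it was at 22.5 to 26.5 and 22.4 to 22.6 CPM. The suffix in the column names separates the same groups.

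Other genes of these pathways were taken from a list of 66, of which 63 passed the filter in both day 6 comparisons. After single 5-FU, 6 were called higher and 7 lower (20.6%, against the same 22.2% of all genes). The higher genes included Ldha (lactate dehydrogenase A, 0.57), Sdhb of succinate dehydrogenase (0.51), the mitochondrial malic enzyme Me2 (0.51), the aspartate-glutamate carrier Slc25a13 (0.50) and Got2 (0.32), as log2 fold changes. The lower genes included the acyl-CoA synthetase Acsl3 (−1.07), Acad10 (−0.83), Acad12 (−0.76), the second phosphatase Pdp2 (−0.34), Ldhb (−0.29) and Pck2 (−0.27). Acsl3, Acad10 and Acad12, of the fatty acid part of this list, were thus lower, while the 5 called members of the branch were all higher, and Pdp2 and Pdp1, which act on the same enzyme, were called in opposite directions.

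After the third 5-FU, 5 of the 63 were called higher and 5 lower (15.9%, against 18.1% of all genes). Me2 (0.71), Ldha (0.52), the dicarboxylate carrier Slc25a10 (0.51), Got1 (0.44) and Sdhb (0.38) were higher, and Acad12 (−0.80), Acad10 (−0.73), Acsl3 (−0.67), Ldhb (−0.62) and the mitochondrial deacetylase Sirt3 (−0.51) were lower. Ldha and Ldhb, whose products form the tetramers that interconvert pyruvate and lactate, were called in opposite directions in both comparisons. Between day 6 and day 21, 6 were called higher and 10 lower after single 5-FU (25.4%, against 26% of all genes), and 3 higher and 7 lower after the third (15.9%, against 19.5%), with Ldha at −0.67 and −0.87 and Me2 at −0.55 and −0.68.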

How the data were processed

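RNA was measured in 21 libraries of mouse HSCs, 3 from independent experiments for each of 7 groups given by the sample labels. Each library was prepared from 3000–3500 cells with a SMART-Seq kit and Nextera XT, and read from one end over 75 bases. Per the submitters' processing notes and the methods, the authors mapped reads to mm10 using TopHat 2.0.13 and quantified expression with Cuffdiff of Cufflinks 2.2.1. The authors deposited whole-number counts per gene symbol, without normalization, and the program that made the counts is not given in the sources used here. Reads shared by overlapping genes, and amplification of little RNA without molecular identifiers, could move these counts.

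Levels are CPM with TMM factors over the 21 libraries, on one scale for the 7 groups. Comparisons were made in R 4.3.3 by edgeR 4.0.16 with its quasi-likelihood F test on the counts of the groups compared, after filterByExpr and TMM, with Benjamini-Hochberg adjustment over all genes kept and a threshold of 0.05, called a call here. Transcript lengths and positions come from GENCODE vM21 on GRCm38, in which 20499 of the 21000 symbols were matched, and promoters from RefSeq on GRCm38.p6. The alternatives were DESeq2 1.42.0, other size factors, other filters, a replicate block, a single fit of all 21 libraries and leaving out each library. The fits were tested on simulated counts. Named genes are all 41 members, with full statistics for up to 4 called members per branch and direction. A second list held 66 other genes of these pathways, and marker lists covered HSCs, other blood cells, stroma and the cell cycle. Some genes of the second list are counted but not reported by name here. The members and lists were chosen with earlier results of these data known. With 3 libraries against 3, an exact permutation test of a single gene cannot go below 0.10, so no such test was used.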

Additional observations from a re-analysis of the deposited data

Results flagged for a closer look

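Idh2, the mitochondrial NADP-dependent isocitrate dehydrogenase, stood on opposite sides of PBS at day 21 after 1 and 3 administrations, and the difference was not tested. After single 5-FU its 3 libraries had 48.0, 44.6 and 43.0 CPM, below every single PBS library (49.5, 48.5 and 50.8), at a log2 fold change of −0.14. After the third 5-FU they had 47.6, 45.9 and 48.9 CPM, above every library of the third PBS (44.9, 44.1 and 45.8), at a log2 fold change of 0.0747. Neither passed in edgeR, and the day 21 levels overlapped each other. The PBS groups did not, since every library of single PBS lay above every library of the third PBS. The comparison after single 5-FU crosses the suffix in the column names, and that after the third does not.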

How the results depend on the processing

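The direction of every member named as called held under all alternatives tried, and the counts of called members moved more than the directions. After single 5-FU, 9 of the 41 members were called in place of 18 when counts were scaled by library size alone (22%, against 21.6% of all genes) and 9 with the replicate block (against 16% of all genes), and 3 to 11 without 1 library (7.32% to 26.8%, against 12% to 15% of all genes). After the third 5-FU, 5 in place of 8 were called with library size alone (12.2%, against 17.8% of all genes). The replicate block gave 4 (9.76%, against 11.9%). Leaving out 1 library gave 4 to 6 (9.76% to 14.6%, against 9.45% to 12.1%). DESeq2 called 2 members in the interaction (4.88%, against 5.41% of all genes) and 1 between the PBS groups (2.44%, against 4.27%), where edgeR called 0. Between day 6 and day 21, leaving out 1 library gave 8 to 20 in place of 18 after single 5-FU (19.5% to 48.8%, against 13.5% to 23.2% of all genes). After the third it gave 6 to 8 in place of 10 (14.6% to 19.5%, against 10.6% to 13.6%). There, a single fit of all 21 libraries gave 16 (39%, against 24.2%). The causes were not tested. The fits without a library also had fewer samples. Library size alone moved the median of all genes from −0.0115 to −0.111 after the third 5-FU and from 0.00807 to 0.117 between day 21 and day 6, on the log2 scale. No paired analysis was taken as the main one, since libraries of the same number did not deviate together, with correlations over genes between −0.06 and 0.0526. Depth limits Pcx most, which had 33 counts in 1 library at day 21 after single 5-FU.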
